A study of Rattus norvegicus with 12 samples.

Results

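GR24, a synthetic analog of the strigolactones, was compared directly with pinosylvin, a stilbene of pine, by the RNA of rat L6 myotubes treated with either compound. The members are the 3 arrays labelled with GR24 and the 3 labelled with pinosylvin, 6 of the 12 arrays of the series, with every probe on them. Both compounds were given at 60 µM in DMSO for 24 h, so dose and time were matched. The 3 control arrays, from myotubes given the same amount of DMSO, were used to find the direction in which each compound moved a gene. They serve both comparisons against the control, so these comparisons share arrays and are not independent. L6 is a cell line of rat skeletal muscle whose myoblasts fuse into myotubes in culture. The sample labels give 6 days of differentiation before treatment. The paper gives a day more. The 3 arrays of a group come from separate experiments on a single batch of cells, so the p-values measure the spread between those experiments and not between cell batches. The number of arrays limits the precision of every value.

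A myotube expresses a set of genes for contraction, for the release of calcium on excitation and for the synapse with the nerve, much of it under the control of the transcription factors MyoD and myogenin. Cells that meet reactive chemicals raise another set through the transcription factor Nrf2, which the adaptor Keap1 holds in check. Nrf2 acts on genes for glutathione synthesis and use, quinone reduction, NADPH supply and heme breakdown. Cholesterol synthesis is set mainly by SREBP2, which raises the genes of the whole pathway when sterols run low.

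Each array held 58717 spots of 45598 probes, and the share well above background was 58% to 62.5% on the GR24 arrays, against 60.2% to 62% on the pinosylvin arrays and 59.5% to 64.3% on the control arrays. No spot was saturated. A level is the log2 intensity of a probe relative to the 75th percentile of its array, and a log2 difference is GR24 minus pinosylvin unless said otherwise. Each gene is given by its probe with the highest mean. The label of the cells was checked with 17 muscle markers. All 17 were well above background on every control and every pinosylvin array, and 16 of them on every GR24 array. *Myod1*, the gene of MyoD, was the exception and was not well above background on any GR24 array. The intensities of these markers, summed relative to the 75th percentile, came to 977, 993 and 946 on the GR24 arrays, 2050, 2200 and 2090 on the pinosylvin arrays and 1860, 2120 and 1880 on the control arrays. The GR24 arrays were thus below all others, while pinosylvin and control arrays lay close together. Bright probes weigh most in such a sum, and the brightest on every array was that of *Myl11*, a light chain of fast myosin. In such bulk samples, fewer cells of a type and less RNA per cell cannot be told apart. No probe carried the names *Ttn*, *Mymk* or *Ryr1*.

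Of 20 markers of adipocytes, fibroblasts, endothelium, blood cells and epithelium, 8 were well above background on none of the 9 arrays, and 7 were above it on all GR24 arrays, 7 on all pinosylvin arrays and 8 on all control arrays. Their summed intensity was 8.87, 8.95 and 8.74 with GR24, 7.17, 7.48 and 7.58 with pinosylvin and 8.29, 8.74 and 9.17 in the control. The brightest probe was that of *Cebpa* on the GR24 arrays and that of *Thy1* on the pinosylvin and control arrays. The sums of the 2 sets come from different probes and are not comparable with each other. The macrophage marker *Cd68*, a protein of lysosomes, had a mean level of -0.57 with GR24, -2.92 with pinosylvin and -3.24 in the control. Its log2 difference was 2.35. The other blood cell markers did not go with it, since *Ptprc* was well above background on none of the 9 arrays and *Adgre1* on 1 GR24 and 1 control array. *Cebpa*, a factor of adipocyte and myeloid differentiation, differed by 0.86, while the adipocyte genes *Adipoq*, *Pparg*, *Cidec* and *Lep* were above background on none. A further adipocyte gene, *Fabp4*, was well above background on 1 GR24 array and on no pinosylvin or control array. The keratin gene *Krt8* stood 0.81 higher with GR24, with *Krt18*, *Epcam* and *Cdh1* above background on none. Among fibroblast markers the proteoglycan gene *Lum* was 1.38 lower. The part of these genes in the results was not tested.

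The compounds left the myotubes far apart. Of 24279 tested probes, 7193 (29.6%) were higher with GR24 than with pinosylvin and 6498 (26.8%) were lower at a limma adjusted p under 0.05. Decreases were larger than increases: 2193 probes were more than 2-fold lower and 1248 more than 2-fold higher, and beyond 4-fold there were 575 and 179. On all 3 GR24 arrays 8004 probes lay above all 3 pinosylvin arrays and 7189 lay below. A gene name was found for 13648 of the 24279 tested probes, and counts by gene leave out the others. Counted by gene, 3732 of 10741 named genes (34.7%) were higher and 2906 (27.1%) lower, with a median log2 difference over all genes of 0.053. Counts of list members are read against these shares. GR24 accounted for most of the distance. Against the control it raised 3874 genes (36.1%) and lowered 2869 (26.7%), while pinosylvin raised 923 (8.59%) and lowered 1049 (9.77%). Replicates 1 and 2 of every group were on 1 slide and replicate 3 on another. The main fit had no block for slide or replicate number, so the spread it measures includes the difference between slides. With the slide as a block, 8327 probes were higher and 7860 lower with GR24, and on the 8 arrays of slide 1 alone, 7442 and 7161. Slide 2 held a single array per group and gives no test.

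Myogenin (*Myog*), the factor that drives late muscle differentiation, showed the largest decrease. Its level was -0.38, -1.05 and -0.50 on the GR24 arrays, 6.01, 5.85 and 5.91 on the pinosylvin arrays and 5.24, 5.25 and 5.08 on the control arrays. Each GR24 array thus lay far below every other array, and the pinosylvin arrays lay above the control. The log2 difference was -6.56 (SE 0.145, adjusted p = 4.24e-10). *Stac3*, which couples the voltage sensor to calcium release, stood at -3.99, -3.93 and -4.25 with GR24, at 2.08, 1.92 and 1.81 with pinosylvin and at 1.14, 1.24 and 1.09 in the control. The order of the groups was the same, with no overlap between any pair of groups. For *Stac3* the log2 difference came to -6.00 (SE 0.107, adjusted p = 1.56e-10). *Art1*, an ADP-ribosyltransferase of the muscle surface, lay between *Myog* and *Stac3* with -6.30 (SE 0.212). Its probe was well above background on only 1 GR24 array, and with normexp the difference was -4.158 or -4.139. After *Stac3* came *Anxa10*, an annexin, with -5.46 (SE 0.0965) and -5.06 for a further probe.

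Other muscle genes stood among the 15 largest decreases. *Hspb3*, a small heat shock protein of muscle, was 4.82 lower, as was *Itgb1bp2*, whose product melusin binds integrin. *Mybph*, which binds myosin, was 4.36 lower and *Acta2*, the smooth muscle actin made early in muscle differentiation, 4.39 lower. *Marcks*, a membrane protein that binds actin, was lower by 4.65. A further 5 were not well above background on any GR24 array, so bounds are given for 4 of them. A bound sets the mean of the brighter group against a mean in which each dim signal under the lowest signal that was well above background is raised to it, and it applies to this background correction alone. The dim signals of the muscle protein gene *Smpx* were not under it, so its 32.2-fold decrease with GR24 is the fitted value and no bound, and with normexp background correction the log2 difference of -5.01 shrank to -2.80 or -2.82. *Spata46*, named for its role in sperm formation, was at least 16.1-fold lower, the actin-binding *Shroom2* at least 12.6-fold, the neuropeptide Y receptor gene *Npy1r* at least 12-fold and the hydroxylysine kinase gene *Hykk* at least 10.7-fold.

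**Figure D1:**
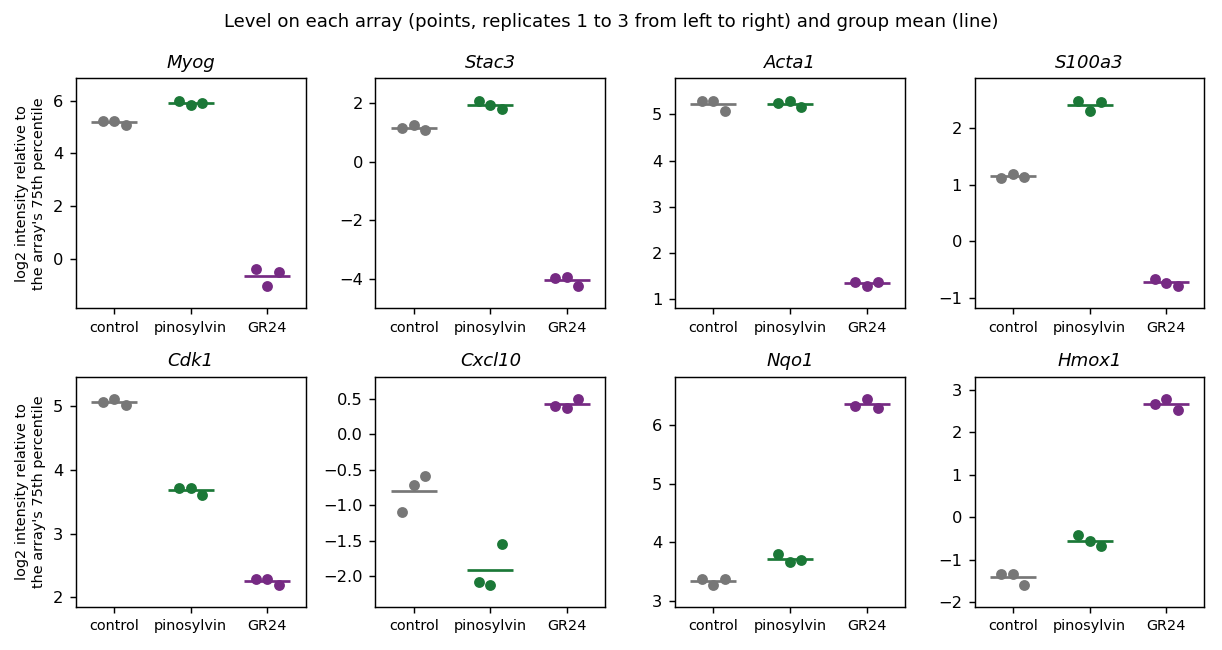
Level of 8 genes on each array (points) with the group mean (line), as log2 intensity relative to the 75th percentile of the array. *Myog*, *Stac3*, *Acta1* and *S100a3* were low with GR24 and *Cxcl10*, *Nqo1* and *Hmox1* were high, while *Cdk1* fell with pinosylvin and further with GR24.

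Heme oxygenase 1 (*Hmox1*), which opens the heme ring, was among the largest increases. Its level was 2.67, 2.78 and 2.52 with GR24, -0.41, -0.57 and -0.69 with pinosylvin and -1.34, -1.33 and -1.59 in the control. The groups did not overlap, and pinosylvin lay between the control and GR24. The log2 difference was 3.21 (SE 0.127, adjusted p = 1.62e-08), made up of 4.08 above the control for GR24 and 0.86 for pinosylvin. The glutathione transferase gene *Gsta2* had the largest fitted difference, 4.85 (SE 0.283, adjusted p = 2.36e-07). It stood at -1.97, -1.85 and -2.14 with GR24, and was not well above background on any pinosylvin array, which gives at least a 12-fold difference. *Gsta5*, of the same family, was higher by 3.24 and the metallothionein gene *Mt2A*, whose product binds zinc and copper, by 3.22. *Ptgr1*, a reductase of prostaglandins and reactive alkenals, was higher by 3.06.

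The other genes among the 15 largest increases had varied roles. *Vgf*, the precursor of secreted neuropeptides, was 3.90 higher (SE 0.105, adjusted p = 1.26e-09), and *C3h15orf48* was 3.34 higher. The phospholipase C gene *Plcd4* had log2 differences of 2.87 and 3.36 for its 2 probes. With normexp and the 75th percentile, *Vgf*, *C3h15orf48* and *Plcd4* had 2.44, 1.69 and 1.75. Such shrinkage was common, since 57 of the 245 direct differences of named genes past the threshold were over 1.5 times smaller with normexp under at least 1 of its 2 normalizations and 33 in the deposited table, and none was over 1.5 times larger. For 7 genes the pinosylvin arrays were not well above background. Of these, *Spmip7*, of the microtubules of sperm tails, was at least 17.1-fold higher and *Tjp3*, a tight junction protein, at least 5.88-fold. *Il6r*, the interleukin 6 receptor, had a fitted value of 7.63-fold with no dim signal raised, and its log2 difference of 2.93 shrank to 1.26 or 1.32 with normexp. For *Magix*, the blood cell membrane gene *Evi2b*, the transporter gene *Slc16a14* and *Fundc2b*, the bounds were 5.33-fold, 4.65-fold, 4.49-fold and 4.24-fold.

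Among the 10741 genes, 166 (1.55%) were higher with GR24 and lower with pinosylvin than in the control, and 285 (2.65%) were the reverse, each past the threshold in both comparisons. These genes were chosen by their values against the control, so the counts are a description. All of them also differed between the compounds directly, which the choice largely fixes. In 162 of the 166 and 284 of the 285, neither compound's arrays overlapped with the control arrays. The choice largely fixes this too, so it is no further evidence. The changes were mostly small. For the 166, the median log2 change was 0.488 with GR24 and -0.401 with pinosylvin, and for the 285, -0.798 and 0.439. Both changes were over 1.5-fold in 24 and 61 genes, and over 2-fold in 4 and 9. Within slide 1, signs were opposite for all 166 and all 285, and on slide 2 for 165 and 285. The genes were chosen on these same arrays, so this agreement is no independent support. With the replicate number as a block there were 355 and 523 such genes, which held 165 of the 166 and all 285. With the slide as a block there were 368 and 523. The first number was 102 without control replicate 1, and the second 182 without pinosylvin replicate 1. With no filter on dim probes they were 71 and 151.

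Among the genes lower with GR24 and higher with pinosylvin, *Myog* had the largest direct difference, from changes of -5.83 and 0.73, of which the second lost its call on slide 1 alone (adjusted p = 0.0768). The others named here had the largest fitted values for the smaller of their 2 changes. By that value *Tekt3*, a tektin of cilia and flagella, came first, at -6.72, -6.84 and -6.62 with GR24, -2.98, -3.21 and -3.12 with pinosylvin and -5.01, -5.17 and -4.85 in the control. The control arrays lay between the others with no overlap, but GR24 was not well above background, so pinosylvin stood at least 6.05-fold above GR24 and the control at least 1.61-fold above it, a bound that does not secure its rank. *Plxdc2*, a membrane receptor gene, gave 0.26, 0.22 and 0.15 with GR24, 2.83, 2.83 and 2.85 with pinosylvin and 1.496, 1.585 and 1.468 in the control. The compounds moved it by almost equal amounts from a tight control, -1.31 and 1.32, and the direct difference was -2.63 (SE 0.0716, adjusted p = 1.33e-09). The calcium-binding *S100a3* stood at -0.66, -0.73 and -0.79 with GR24, 2.49, 2.31 and 2.46 with pinosylvin and 1.12, 1.18 and 1.14 in the control. Again the control arrays lay between, and the direct difference was -3.15 (SE 0.0651, adjusted p = 2.56e-10). *Myo1g*, a myosin of the cell membrane, fell by 2.51 with GR24 and rose by 1.19 with pinosylvin. *Apoc1*, an apolipoprotein gene, moved by -1.86 and 1.22, and the secreted protein gene *Crispld2* by -1.72 and 1.05. *Asgr2*, a subunit of the asialoglycoprotein receptor, moved by -1.02 and 1.23. With normexp and quantile normalization the GR24 changes of *Apoc1*, *Crispld2* and *Asgr2* shrank to -1.105, -0.732 and -0.656. For the transcription factor gene *Sox8* and for *Mgp*, an inhibitor of calcification, GR24 was not well above background, and pinosylvin stood at least 5.69-fold and 3.02-fold above it. *Pik3ap1*, an adaptor of phosphoinositide kinase, was well above background on 2 pinosylvin arrays and on no GR24 or control array, and was tested because the 3 resveratrol arrays were above it. Its GR24 call was lost with normexp, in the deposited table and on slide 1 alone, its pinosylvin call with normexp and the 75th percentile.

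Among genes higher with GR24 and lower with pinosylvin, the chemokine gene *Cxcl10* stood out by its signal. It was at 0.40, 0.38 and 0.50 with GR24, -2.08, -2.12 and -1.55 with pinosylvin and -1.10, -0.72 and -0.59 in the control. Its changes from the control were 1.23 and -1.11, with the control again between the compounds and a direct difference of 2.34 (SE 0.163, adjusted p = 8.53e-07). No groups overlapped. *Nt5c*, a nucleotidase, moved by 1.36 and -0.998. Both the polarity gene *Pard6b*, with 1.17 and -0.98, and the nuclear envelope gene *Nemp1*, with 1.43 and -0.81, moved likewise. *Bdh1*, an enzyme of ketone bodies, changed by 1.33 and -0.99, and its 2 probes gave direct differences of 2.33 and 3.23. *Gsta2* and *Tjp3* had the larger fitted values, but their pinosylvin arrays were not well above background. The pinosylvin call of *Gsta2* was lost with normexp, with no filter, in a fit without the resveratrol arrays and without pinosylvin replicate 2 or 3 (adjusted p up to 0.164), and that of *Tjp3* with normexp (adjusted p up to 0.194). That of *Pilra*, an inhibitory receptor of myeloid cells, was lost with normexp under both normalizations, those of *Bdh1* and *Nemp1* with normexp and the 75th percentile, and that of *Pard6b* on slide 1 alone. For *2200002J24Rikl*, the pinosylvin call (adjusted p = 0.05) was lost under most alternatives.

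**Figure D2:**
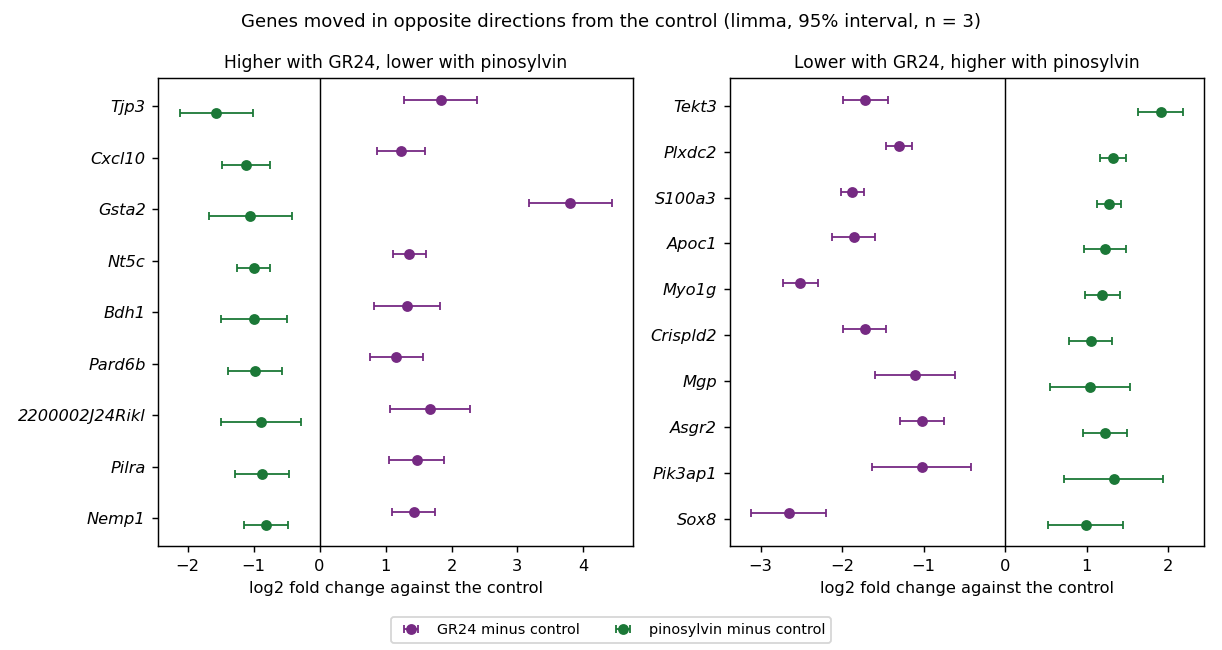
Changes against the control, in log2 with 95% confidence intervals from limma (n = 3 per group), for genes moved in opposite directions. Values of genes that were not well above background in a group, such as *Gsta2* and *Tekt3*, are fitted values and not bounds.

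Contractile and membrane genes of muscle set the compounds apart more than the other lists did, by their medians. Where 5 or fewer members of a list passed the threshold against the direction of the others, most of them are named too, and those outside the rule for named genes were picked after their values were seen. Of 33 tested sarcomere genes, 31 were lower and 2 higher with GR24 than with pinosylvin, and the median log2 difference was -1.638. The medians against the control were -1.59 for GR24 and 0.08 for pinosylvin. *Acta1*, the skeletal muscle actin, was at 1.37, 1.27 and 1.37 with GR24, 5.24, 5.29 and 5.16 with pinosylvin and 5.29, 5.30 and 5.07 in the control. Pinosylvin and control arrays overlapped, and all GR24 arrays were far below. The difference was -3.89 (SE 0.0777, adjusted p = 2.41e-10). *Smyd1*, a methyltransferase needed to assemble myofibrils, was 3.45 lower and *Myom1*, which crosslinks myosin at the M band, 3.23 lower. *Ldb3*, a protein of the Z disc, differed by -2.98 and *Mybpc1*, the slow myosin-binding protein C, by -2.86 (-1.60 or -1.55 with normexp). The 2 exceptions were *Actn3*, the fast alpha-actinin, with 0.48, and *Tpm3*, a slow tropomyosin also made outside muscle, with 0.31. The call of *Actn3* was lost under 14 alternatives, among them those without any 1 array other than GR24 replicate 3 (adjusted p up to 0.262), and its value was 0.306 without GR24 replicate 1. That of *Tpm3* was lost under 6, among them those without GR24 replicate 1 or 2 or pinosylvin replicate 1 or 3 (adjusted p up to 0.0839), and its 4 probes ran from -0.43 to 0.99, so its direction depends on the probe.

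Of 15 genes of excitation-contraction coupling, 14 were lower and none higher (median -1.83). Besides *Stac3*, the calcium pump inhibitor sarcolipin (*Sln*) was lower by 3.44, the calcium channel subunit *Cacng1* by 2.48, the caveolin of muscle *Cav3* by 2.43, the calcium pump *Atp2a1* by 2.36 and *Jsrp1*, a protein of the junctional membrane, by 2.04. Only *Atp2a2*, the calcium pump of slow and heart muscle, was not past the threshold, with 0.05, and its other probes went down to -1.45. It was past it with quantile normalization, with and without normexp, and in the deposited table, with 0.204 to 0.213, and on the other side, with -0.942, as the mean over its probes. All 12 genes of the acetylcholine receptor and the synapse were lower, with a median of -1.449. *Chrnd*, the delta subunit of the receptor, was 2.02 lower, *Ache*, the esterase that ends the signal, 1.66 lower, *Rapsn*, which clusters receptors, 1.66 lower, and *Dok7* and *Musk*, of the kinase pathway that forms the synapse, both 1.46 lower. *Colq*, the tail that anchors the esterase, had no GR24 array well above background and was at least 4.29-fold lower. In these lists part of the distance came from pinosylvin. *Chrnd* was 0.87 above the control with it and 1.15 below with GR24, and *Musk* moved by 0.70 and -0.76.

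The genes of all 4 MyoD family factors were lower with GR24. *Myog* was far lower, *Myod1* was at least 2.92-fold lower, and *Myf6*, well above background on 2 GR24 arrays, and *Myf5* were lower by 0.81 and 0.70. Higher with GR24 were *Id2*, by 1.55, and *Id1*, by 0.80, inhibitors that keep these factors from DNA. The list of 14 tested genes mixes such factors, their partners and their inhibitors, so its 3 higher and 6 lower members and its median of -0.145 give no direction for myogenic factors. That median was -0.064 and -0.283 without GR24 replicate 1 and 3, 0.111 without pinosylvin replicate 3, and -0.081 and -0.255 on slides 1 and 2. Among 13 genes of energy buffering and glycogen use, 9 were lower and 1 higher (median -0.77, with -0.881 on slide 1 and -0.535 on slide 2). The muscle creatine kinase gene *Ckm* differed by -2.83, *Ampd1*, the AMP deaminase of muscle, by -1.94, and the glycogen phosphorylase gene *Pygm* by -1.48. The brain phosphorylase *Pygb* was the member that was higher, by 0.42. *Ampd1* was 0.99 below the control with GR24 and 0.95 above it with pinosylvin.

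Glutathione and detoxification genes stood mostly on the other side. Of 17 tested glutathione transferase genes, 11 were higher and 6 lower with GR24 than with pinosylvin, so every member differed, with a median of 0.575. After *Gsta2* and *Gsta5* came *Gsta1*, with 1.78, and the microsomal *Mgst1* and *Mgst2*, with 1.75 and 1.36. *Gsta1* was also raised by pinosylvin, by 2.79 above the control against 4.58 with GR24. Lower with GR24 was *Gsta4*, which takes up lipid aldehydes, by 1.02. Among 31 genes of glutathione synthesis and peroxide removal, 18 were higher and 8 lower (median 0.451). *Srxn1*, which repairs peroxiredoxins, was 1.87 higher, catalase (*Cat*) 1.77, glutathione reductase (*Gsr*) 1.70 and thioredoxin (*Txn1*) 1.48. *Gclc*, the subunit of the first step of glutathione synthesis, was 1.28 higher (SE 0.0851, adjusted p = 6.27e-07). It did not pass the threshold between pinosylvin and the control, where the change was -0.14 (adjusted p = 0.323). For the thioredoxin reductase gene *Txnrd1*, 2 probes gave 1.31 and 2.03.

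Quinone reductase (*Nqo1*) was at 6.33, 6.44 and 6.28 with GR24, 3.80, 3.67 and 3.70 with pinosylvin and 3.382, 3.284 and 3.378 in the control. All groups were apart, with pinosylvin much nearer to the control than to GR24. The log2 difference was 2.62 (SE 0.0691, adjusted p = 1.15e-09), and the changes against the control were 3.00 and 0.38. In its list of quinone, carbonyl and aldo-keto reductases, 8 of 15 were higher and 4 lower (median 0.387). *Adh7*, an alcohol dehydrogenase of retinol, was 2.11 higher, and the aldo-keto reductase genes *Akr1b8* and *Akr1b1* were 1.80 and 1.20 higher. *Cbr3*, a carbonyl reductase, differed by 1.48. The 4 that were lower were *Cbr4* (-0.88), the aldehyde dehydrogenase gene *Aldh3a1* (-0.84), *Akr1c15* (-0.72) and *Ptgr2* (-0.52). *Adh7* rose by 1.53 with GR24 and fell by 0.58 with pinosylvin.

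Genes of NADPH supply had the highest median of the lists with 10 or more tested members, 0.894, with 9 of 12 higher and 2 lower. The pentose phosphate enzymes *Pgd*, *Taldo1* and *Rpia* were higher by 1.56, 1.22 and 1.16. *Idh2*, the mitochondrial isocitrate dehydrogenase, was lower by 1.05 and *Pgls*, of the pentose phosphate pathway, by 0.84. Only *H6pd*, the hexose dehydrogenase of the endoplasmic reticulum, moved in opposite directions, by 0.49 with GR24 and -0.49 with pinosylvin. Heme, iron and metallothionein genes were higher in 13 of 18 and lower in 2 (median 0.553). Besides *Hmox1* and *Mt2A*, these were *Mt1*, a further metallothionein, with 2.75, *Alas1*, the start of heme synthesis, with 1.24, and biliverdin reductase B (*Blvrb*) with 1.11. The iron exporter gene *Slc40a1* was lower, with -1.505 and -2.08 for its 2 probes, as was the metallothionein gene *Mt3*, by 0.92.

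The gene of Nrf2 itself, *Nfe2l2*, moved little. It was at 4.62, 4.82 and 4.37 with GR24, 4.21, 4.00 and 3.95 with pinosylvin and 4.01, 4.05 and 3.98 in the control. Pinosylvin and control overlapped and GR24 lay above both, with a log2 difference of 0.54 (SE 0.114, adjusted p = 0.00207). In the list of Nrf2, Keap1 and their partners, 8 of 10 were higher and 1 lower (median 0.514). *Maff*, a small Maf partner of Nrf2, was higher by 1.57, *Keap1* by 0.98 and *Bach1*, a repressor at Nrf2 sites, by 0.80, while the related *Bach2* was lower by 0.32, a call lost under 10 alternatives, such as without GR24 replicate 3 or any 1 pinosylvin array (adjusted p up to 0.0927). Probes of *Sqstm1*, the autophagy receptor that binds Keap1, ranged from 0.43 to 3.68, so the size of its difference depends on the probe. Of 6 tested genes of the Ah receptor pathway, which responds to flat aromatic compounds, 3 were higher. *Arnt*, the partner of the receptor, was higher by 0.92 and its repressor *Ahrr* by 0.67. The receptor gene *Ahr* was higher by 0.46, a call lost under 8 alternatives, such as slide 1 alone (adjusted p = 0.167). *Cyp1b1*, an enzyme that the receptor induces, had 0.74 (adjusted p = 0.0687), which passed the threshold under 7 alternatives, the replicate block among them (adjusted p = 0.0049). Its pinosylvin arrays were not well above background, and *Cyp1a1* was not tested. Drug exporters were higher in 4 of 7 and lower in 2, with a median of 0.749 that differed between slide 1 (0.536) and slide 2 (1.174). It was 0.33 with normexp and the 75th percentile, 0.416 with normexp and quantile normalization and 0.485 with either other filter. *Abcc4* and *Abcc1*, which export conjugates, were higher by 1.44 and 1.26, and *Abcb1b* and *Abcb6* were lower by 0.48 and 0.38.

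**Figure D3:**
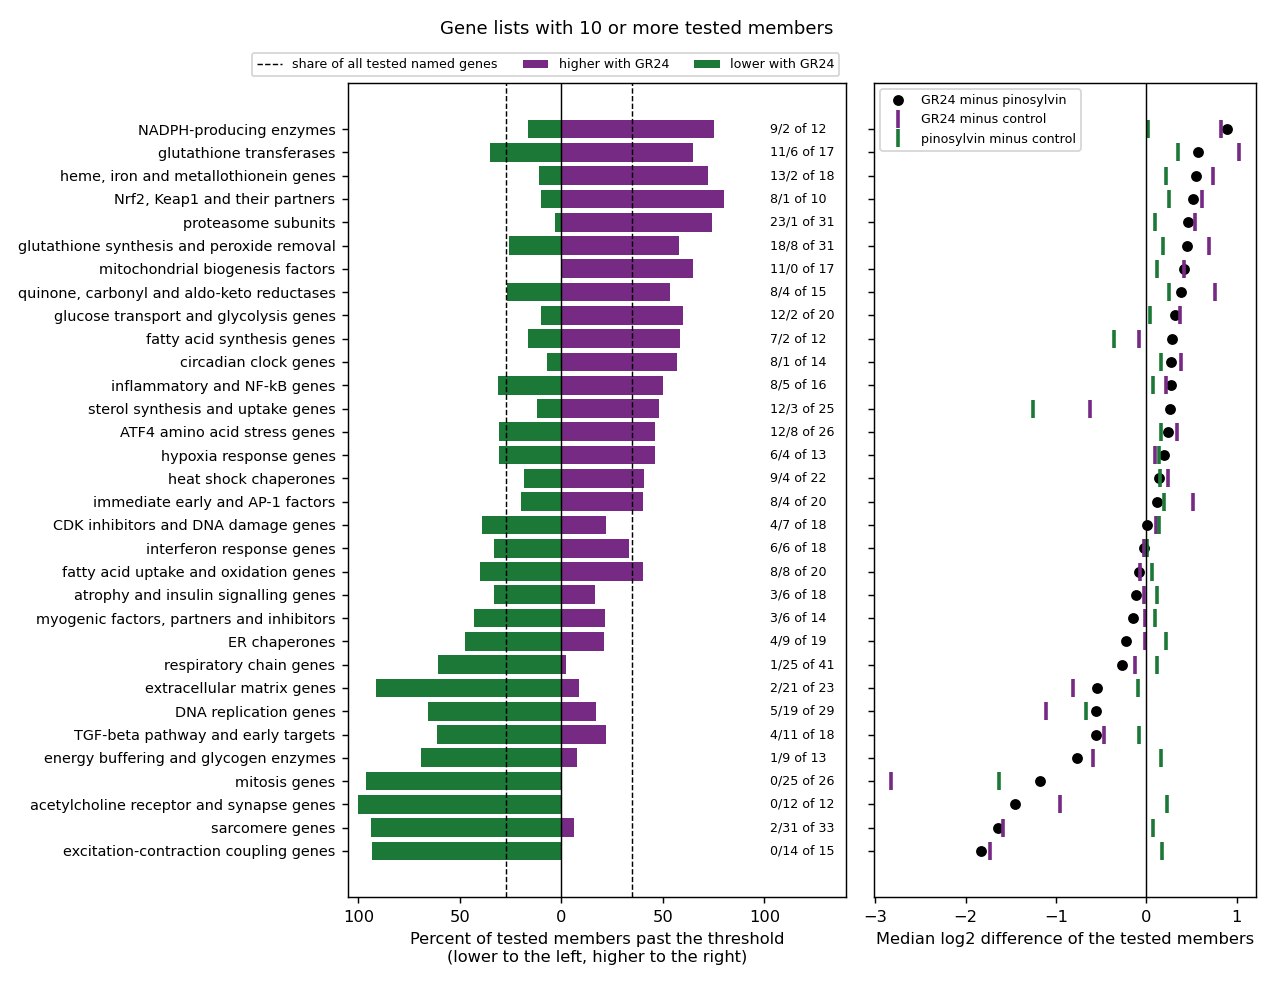
Left, percent of tested list members past the threshold, higher with GR24 to the right and lower to the left, with dashed lines at the shares over all tested named genes (34.7% and 27.1%). Right, median log2 difference of each list, where the medians of the CDK inhibitor and DNA damage, fatty acid oxidation, myogenic factor and interferon lists changed sign under some alternatives.

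Both compounds lowered mitosis genes, and GR24 lowered them further. All 26 tested members were below the control with each compound, with medians of -2.822 for GR24 and -1.63 for pinosylvin, and 25 were lower with GR24 than with pinosylvin (median -1.175). *Cdk1*, the kinase that starts mitosis, was at 2.29, 2.29 and 2.20 with GR24, 3.71, 3.72 and 3.61 with pinosylvin and 5.08, 5.12 and 5.02 in the control. The pinosylvin arrays lay between the others, near the middle, with no overlap. The direct difference was -1.42 (SE 0.0647, adjusted p = 3.88e-08). The kinesins *Kif20a* and *Kif2c* were lower by 2.24 and 2.02 (the second by 0.98 or 0.90 with normexp), *Cenpf* of the kinetochore by 2.17, the ubiquitin enzyme *Ube2c* by 2.11, cyclin B2 (*Ccnb2*) by 2.08 and the transcription factor *Mybl2* by 2.06. The proliferation marker *Mki67* was lower by 1.18. The exception was *Bub1*, a checkpoint kinase, with 0.03.

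DNA replication genes were lower in 19 of 29 and higher in 5 (median -0.553). The replication factor *Mcm10* and *Mcm7*, a subunit of the replicative helicase, were lower by 1.91 and 1.66 (the first by 0.83 or 0.77 with normexp). *Cdc6*, which loads this helicase, was lower by 1.503 and the ribonucleotide reductase gene *Rrm2* by 1.61. Among those that were higher, *Tyms* (0.66) and *Prim1* (0.74) serve thymidylate and primer synthesis, and *Pcna* (0.18) and *Rfc4* (0.28) the sliding clamp. The call of *Pcna* was lost with no filter and without GR24 replicate 1 or 2 or pinosylvin replicate 1 or 2, among others (adjusted p up to 0.103). CDK inhibitors and DNA damage response genes were higher in 4 of 18 and lower in 7, and their median of 0.013 turned negative without GR24 replicate 1 or 2 or pinosylvin replicate 3 and on slide 2 (-0.111). Over the alternatives it ran from -0.031 without GR24 replicate 1 to 0.104 with the percentile over all spots, with 0.053 without GR24 replicate 3 and 0.024 without pinosylvin replicate 2. The inhibitor gene *Cdkn1c* was lower by 3.12, and the stress genes *Gadd45b* and *Gadd45a* by 1.29 and 0.91. Among the higher members were the CDK inhibitor *Cdkn1b* (0.64), the ubiquitin ligase *Mdm2* (0.50) and the death receptor *Fas* (0.45), whose call was lost on slide 1 alone (adjusted p = 0.0747). For *Cdkn1a*, the gene of p21, the 2 probes had -0.48 and 0.04.

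Many sterol genes fell with both compounds. Of 25 genes, 24 were below the control with pinosylvin (median -1.254) and 17 with GR24 (-0.626), and directly 12 were higher and 3 lower with GR24 (median 0.263, and 0.418 without GR24 replicate 3). Squalene epoxidase (*Sqle*) was at 2.94, 3.03 and 2.79 with GR24, 3.39, 3.62 and 3.44 with pinosylvin and 4.79, 4.82 and 4.60 in the control. Both compounds were thus below the control without overlap and GR24 was the lowest, with a direct difference of -0.56 (SE 0.0923, adjusted p = 0.000404). *Hmgcs1*, which makes HMG-CoA, differed by -0.57. Among the genes that were higher with GR24 were *Hsd17b7* with 1.86 and 2.61 for its 2 probes, the sterol reductase *Tm7sf2* with 1.76, the desaturase *Sc5d* with 1.23 and the demethylase *Cyp51* with 1.00. *Tm7sf2* fell by 2.08 with pinosylvin and had -0.32 with GR24, a value not past the threshold.

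Fatty acid synthesis genes were higher in 7 of 12 and lower in 2 (median 0.285). *Acss2*, which makes acetyl-CoA, differed by 0.95 and the desaturase *Scd* by 0.67. Lower were *Elovl6*, an elongase, by 0.44 and the desaturase *Fads1* by 0.45. Genes of fatty acid uptake and oxidation were split, 8 of 20 higher and 8 lower, and their median of -0.084 turned positive in the deposited table, with no filter, with a stricter filter that asks for signal above background on all 12 arrays and with the percentile over all spots. It was -0.012 without GR24 replicate 3, -0.032 without pinosylvin replicate 1 and -0.129 on slide 2. The uncoupling protein gene *Ucp3* and the fatty acid receptor gene *Cd36* had no GR24 array well above background, and their decreases were at least 4.58-fold and 4.44-fold. *Fabp3*, the fatty acid carrier of muscle, was lower by 1.56, and *Angptl4*, an inhibitor of lipoprotein lipase, was higher by 1.60.

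Glucose transport and glycolysis genes were higher in 12 of 20 and lower in 2 (median 0.318, and 0.498 in the deposited table). The exceptions were *Slc2a4* and *Ldhb*. *Slc2a4*, the glucose transporter that insulin moves to the membrane, was at -0.47, -0.58 and -0.45 with GR24, 1.15, 1.03 and 1.01 with pinosylvin and 0.80, 0.74 and 0.71 in the control. GR24 lay below and pinosylvin above the control, each without overlap, and the difference was -1.56 (SE 0.0659, adjusted p = 2.44e-08). *Ldhb*, the lactate dehydrogenase of heart and slow muscle, was lower by 0.97. The general transporter *Slc2a1* was higher by 1.47 and the platelet phosphofructokinase *Pfkp* by 1.25.

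Respiratory chain genes were lower in 25 of 41 and higher in 1, by small amounts, with a median of -0.269 (-0.112 in the deposited table, -0.115 and -0.116 with quantile normalization without and with normexp, and -0.179 with the percentile over all spots). *Cox6a2*, the muscle form of a cytochrome oxidase subunit, stood apart with -2.18, from 0.76 below the control with GR24 and 1.42 above it with pinosylvin. *Ndufs4*, of complex I, was lower by 1.05 and *Cox8a*, of complex IV, by 0.98. The 1 gene that was higher was *Ndufa10*, a complex I subunit, with 0.26, a call lost with no filter and without GR24 replicate 1 or 2 or pinosylvin replicate 1 (adjusted p up to 0.103). Factors of mitochondrial biogenesis went the other way, with 11 of 17 higher and none lower (median 0.417). The mitochondrial helicase gene *Twnk* was higher by 1.26, *Nampt*, which makes NAD, by 0.87, and *Tfb2m* and *Polrmt*, of mitochondrial transcription, by 0.84 and 0.77. *Tfam*, which packs and transcribes mitochondrial DNA, was higher by 0.54. *Ppargc1a* and *Sirt1* were not tested.

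Proteasome subunits were higher in 23 of 31 and lower in 1, with a median of 0.464. Against the control, 26 were higher with GR24 and none with pinosylvin. The differences were small and ran from -0.285 to 0.721 over the list. Among the largest, the lid subunits *Psmd14*, *Psmd11* and *Psmd3* were higher by 0.72, 0.72 and 0.70 and the core subunit *Psmb3* by 0.67. The 1 that was lower was the core subunit *Psma4*, with -0.285, a call lost without pinosylvin replicate 2 (adjusted p = 0.0517). Heat shock chaperones were higher in 9 of 22 and lower in 4 (median 0.144), shares not far from those over all genes. Without pinosylvin replicate 3 the median was 0.057, without GR24 replicate 2 it was 0.086, on slide 1 alone 0.091 and with the percentile over all spots 0.234. *Hspa4l*, an exchange factor, was higher by 1.35 and *Bag3*, which binds small heat shock proteins, by 0.77, while the mitochondrial *Hspe1* and *Hspd1* were lower by 1.07 and 0.53 and the muscle *Hspb2* by 1.40. *Hspa8*, the constant Hsp70, was lower by 0.53 to 1.27 over 4 probes. Among chaperones of the endoplasmic reticulum, 4 of 19 were higher and 9 lower (median -0.228, with -0.104 in the deposited table and -0.138 with the percentile over all spots). *Sdf2l1* and the disulfide isomerase *Pdia6* were lower by 1.33 and 1.20, and *Xbp1*, a factor that induces such chaperones, by 0.79, while *Sel1l* and *Syvn1*, of protein disposal, were higher by 0.91 and 0.20 and the cochaperones *Dnajc3* and *Dnajb9* by 0.67 and 0.58. The call of *Syvn1* was lost under 10 alternatives, among them without GR24 replicate 1 or 2, pinosylvin replicate 2 or 3 or control replicate 2 (adjusted p up to 0.138). Of 26 genes of the ATF4 amino acid response, 12 were higher and 8 lower (median 0.245, with 0.241 on slide 1 and 0.112 on slide 2). The glycine transporter gene *Slc6a9* was higher by 2.28 and *Slc3a2*, a subunit of amino acid exchangers, by 1.03, while the stress genes *Atf5* and *Nupr1* were lower by 1.08 and 1.10. *Atf5* was raised by pinosylvin, by 1.10, and had 0.02 with GR24.

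Matrix genes were lower with GR24 in 21 of 23 and higher in 2 (median -0.54). *Thbs2* and *Thbs1*, the thrombospondins, were lower by 2.58 and 2.27, elastin (*Eln*) by 1.84, and the collagens *Col11a1* and *Col3a1* by 1.77 and 1.5. *Postn*, periostin of the matrix, was lower by 1.61. *Thbs1* and *Postn* moved in opposite directions, by -1.62 and -0.91 with GR24 and by 0.66 and 0.71 with pinosylvin. The 2 that were higher were the laminin gene *Lamc1*, with 0.54, and *Timp1*, an inhibitor of matrix proteases, with 0.40. Genes of the TGF-beta pathway were lower in 11 of 18 and higher in 4 (median -0.555, and -0.245 with the mean over probes of a gene). The ligand gene *Tgfb3* was lower by 1.82 and the early targets *Ccn2* and *Ccn1* by 1.53 each. *Bambi*, a decoy receptor that blocks the pathway, was higher by 1.31, as were the signal carriers *Smad4* (0.74) and *Smad2* (0.29) and the inhibitor *Smad7* (0.45). *Smad2* lost its call under 5 alternatives, among them without GR24 replicate 1 or 2 or pinosylvin replicate 2 (adjusted p up to 0.0769).

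Inflammatory genes were mixed, with 8 of 16 higher and 5 lower (median 0.276, and 0.152 with no filter). The chemokine gene *Cxcl12* was lower by 3.22 to 3.84 over its 3 probes and the adhesion gene *Vcam1* by 2.75, while *Cxcl1*, which attracts neutrophils, was higher by 1.09. *Ptgs2*, the inducible cyclooxygenase, was lower by 1.13 and *Nfkb1*, of NF-kB, by 0.58. *Il18*, a cytokine, fell by 0.67 with GR24 and rose by 0.38 with pinosylvin. Interferon response genes were higher in 6 of 18 and lower in 6, and the sign of their median of -0.026 changed with quantile normalization and 5 other alternatives. Leaving out 1 array gave -0.095 (pinosylvin replicate 3) to 0.027 (GR24 replicate 3), and slide 2 gave -0.103. The antiviral genes *Rsad2*, with 2 pinosylvin arrays well above background, and *Isg15* were higher by 2.67 and 1.83, and *Oasl*, with no pinosylvin array well above background, was at least 2.56-fold higher. Lower were the antiviral genes *Ifit2*, by 0.53, a call lost on slide 1 alone (adjusted p = 0.0503), and *Bst2*, by 0.44, and the immunoproteasome subunit *Psmb9*, by 0.39.

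Immediate early and AP-1 factors were higher in 8 of 20 and lower in 4 (median 0.12). That median was 0.25 without GR24 replicate 1, 0.183 without pinosylvin replicate 3, 0.22 on slide 2 and 0.061 with normexp and the 75th percentile. *Fosl1*, a Fos-related factor, differed by 2.19, from 1.56 above the control with GR24 and 0.63 below it with pinosylvin. The phosphatase gene *Dusp5* was higher by 1.73, *Ier3* by 1.61 and the factor *Klf4* by 1.54. Lower were *Klf2* (-0.75), *Jun* (-0.70), *Egr2* (-0.57) and *Egr1* (-0.39), all transcription factors. A further probe of *Egr2* gave -1.86, and the call of the one used was lost under 6 alternatives, among them without GR24 replicate 1 or 2 or pinosylvin replicate 1 (adjusted p up to 0.0815), with -0.381 without GR24 replicate 2. Clock genes were higher in 8 of 14 and lower in 1 (median 0.279), with *Clock*, the partner of Bmal1, at 1.29, and the repressors *Bhlhe40* and *Nr1d1* at 0.86 and 0.81. The 1 that was lower, *Npas2*, a relative of *Clock*, had -0.37, a call lost in the deposited table and with normexp and quantile normalization (adjusted p up to 0.0710). Hypoxia genes were higher in 6 of 13 and lower in 4 (median 0.191, and 0.127 with no filter). *Ero1a*, an oxidase of the endoplasmic reticulum, was higher by 1.44 and the carbonic anhydrase *Car9* lower by 1.08. Also lower were the growth factor gene *Vegfa* by 0.27 to 0.74 over 3 probes, the collagen hydroxylase *P4ha2* by 0.42 and *Pdk1*, which restrains pyruvate oxidation, by 0.24. The call of *Pdk1* was lost under 5 alternatives, among them without GR24 replicate 2 or pinosylvin replicate 3 (adjusted p up to 0.127). Of 18 genes of atrophy and insulin signalling, 3 were higher and 6 lower (median -0.115). That median was -0.202 without GR24 replicate 3 and ran from -0.245 with the mean over probes of a gene to -0.024 with the percentile over all spots. *Klf15*, a factor of muscle lipid use, and *Igfbp2*, which binds insulin-like growth factors, were lower by 1.95 and 1.88, and the insulin receptor gene *Insr* was higher by 1.11, the kinase subunit *Pik3r1* by 0.64 and the factor *Foxo4* by 0.23, a call lost with no filter and without pinosylvin replicate 2 (adjusted p up to 0.0645). *Igf1r*, the receptor of insulin-like growth factor 1, had probes at -1.15 and 0.26, so its direction depends on the probe.

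Where the compounds did not differ much can be read from the interval. For 6885 probes (28.4%) the 95% interval of the log2 difference lay within 0.5 either side of 0, and 1566 of these were past the threshold with a small difference. With normexp background correction, 11201 or 11599 probes had such an interval. Of the 10588 probes not past the threshold, 5319 had such an interval, and for the others the interval reached beyond this limit. Some genes changed by more than 2-fold the same way with both compounds and had an interval within this limit. There were 33, led in size of change by *Anxa8*, *Ddias*, *Recql4*, *Nkd1*, *Cks2* and *Cdca8*. *Cdca8*, of the complex that corrects spindle attachment, was at -3.17, -2.92 and -3.15 with GR24, -2.94, -2.94 and -2.95 with pinosylvin and -1.42, -1.34 and -1.54 in the control. The compounds overlapped and both lay below the control, with a difference of -0.14 (SE 0.0951, adjusted p = 0.243). *Recql4*, a helicase of DNA repair, differed by -0.10 after falls of 1.71 with GR24 and 1.61 with pinosylvin. *Ddias*, an inhibitor of cell death, differed by 0.03 after falls of 1.70 and 1.72. *Nkd1*, an inhibitor of Wnt signalling, had 0.07 after falls of 1.57 and 1.64, with 0.42 for a further probe. Its slides disagreed, with -0.23 on slide 1 and 0.67 on slide 2, which is beyond the limit, so the value of 0.07 averages over them. The sign also differed between slides for *Recql4* (-0.23 and 0.16) and *Ddias* (0.15 and -0.22), within the limit. The annexin gene *Anxa8* had -0.26 (adjusted p = 0.0524), past the threshold under 9 alternatives, such as the replicate block (adjusted p = 0.0148). *Cks2*, which binds cyclin-dependent kinases, was past it with -0.29 (adjusted p = 0.0152) and was not under 5 alternatives, such as slide 1 alone (adjusted p = 0.153).

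Promoter sequences were taken for lists with a factor whose element is known, from the RefSeq table for the build GRCr8, with 250 bases before to 50 after the start of 27457 genes. Of the 10741 tested genes, 8835 matched an entry. Letters were searched on both strands, and a match describes the letters and is not a site. TGACNNNGC, the core of the element that Nrf2 binds, was in a promoter of 13.1% of all genes of the table and 15% of tested genes, where 1 match in any promoter of a gene counts. It was in 5 of 14 glutathione transferase genes (35.7%), 6 of 15 of heme, iron and metallothionein genes (40%), 6 of 25 of the glutathione synthesis list (24%), 2 of 9 of NADPH genes, 2 of 12 of reductase genes and 2 of 9 of the list of Nrf2 and its partners. Over these 6 lists, with each gene counted once, the letters were in 15 of 55 genes higher with GR24 and 5 of 19 genes lower with it. Of the transferase matches 2 were in genes that were lower, neither reductase match was in a gene that was higher, and *Nqo1*, *Gclc* and *Srxn1* had none. TTTGAA, part of the element of cell cycle genes that are active in mitosis, was in 19.4% of all genes, 12.7% of tested genes and 13 of 21 of mitosis genes (61.9%). GCGTG, the core that the Ah receptor binds, was in 32.4% of all, 49.4% of tested and 3 of 5 of the Ah receptor list. TCACNCCAC, a sterol regulatory element, was in 1.25% of all, 1.23% of tested and 0 of 17 sterol genes, which says only that these letters are not in this window. Below are promoters picked because they hold the letters, of genes that were far higher with GR24, *Gsta2* (chr8:88077043-88077342, minus strand), *Gsta1* (chr9:31216483-31216782, minus strand) and *Mt2A* (chr19:10838659-10838958, minus strand), and of mitosis genes that fell with both, *Ccnb2* (chr8:79981609-79981908, minus strand) and *Cdk1* (chr20:19265043-19265342, plus strand). Each reads 5′ to 3′ on the strand of its gene, and capitals mark TGACNNNGC or its reverse complement in the transferase and metallothionein promoters and TTTGAA in the others. The marked letters of *Gsta2* and *Gsta1* begin at bases 37 and 31 of the transcribed sequence, and those of *Mt2A* at base -237, before it.
Gsta2: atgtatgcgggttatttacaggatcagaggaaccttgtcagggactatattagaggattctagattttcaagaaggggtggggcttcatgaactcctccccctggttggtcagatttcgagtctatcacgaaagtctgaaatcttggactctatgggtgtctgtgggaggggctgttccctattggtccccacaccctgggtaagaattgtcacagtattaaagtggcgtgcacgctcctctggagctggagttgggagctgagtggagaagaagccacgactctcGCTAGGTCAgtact
Gsta1: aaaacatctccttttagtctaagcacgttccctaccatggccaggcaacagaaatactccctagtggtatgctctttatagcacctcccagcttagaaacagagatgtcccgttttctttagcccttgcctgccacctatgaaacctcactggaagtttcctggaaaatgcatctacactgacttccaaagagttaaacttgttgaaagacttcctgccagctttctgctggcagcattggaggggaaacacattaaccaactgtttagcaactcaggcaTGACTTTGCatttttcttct
Mt2A: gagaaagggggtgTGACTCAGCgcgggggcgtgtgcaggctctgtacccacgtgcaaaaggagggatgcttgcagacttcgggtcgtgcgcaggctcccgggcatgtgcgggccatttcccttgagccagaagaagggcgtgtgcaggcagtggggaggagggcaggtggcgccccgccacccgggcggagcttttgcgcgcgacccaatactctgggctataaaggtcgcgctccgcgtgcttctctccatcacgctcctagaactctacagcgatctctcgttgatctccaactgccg
Ccnb2: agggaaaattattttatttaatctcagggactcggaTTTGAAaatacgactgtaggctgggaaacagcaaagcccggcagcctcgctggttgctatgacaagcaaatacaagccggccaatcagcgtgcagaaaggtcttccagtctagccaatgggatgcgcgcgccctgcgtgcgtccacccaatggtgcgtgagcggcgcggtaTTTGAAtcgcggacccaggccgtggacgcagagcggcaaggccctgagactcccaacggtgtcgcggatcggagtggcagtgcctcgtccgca
Cdk1: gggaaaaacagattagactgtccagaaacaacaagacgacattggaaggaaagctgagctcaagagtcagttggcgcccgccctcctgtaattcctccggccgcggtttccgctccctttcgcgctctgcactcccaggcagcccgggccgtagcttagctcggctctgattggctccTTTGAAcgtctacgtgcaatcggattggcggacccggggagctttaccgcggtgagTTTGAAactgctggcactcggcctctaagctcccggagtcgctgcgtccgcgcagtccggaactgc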

How the data were processed

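Scanner files were deposited for all arrays. Their processed signal, the intensity after the authors' software took off the background of the array, was used, and it holds no normalization between arrays. The authors also deposited a table of log2 values normalized by a method they do not state, used as an alternative. Here log2 of the processed signal was taken, spots marked as outliers were left out, spots of a probe were averaged and the 75th percentile over the probes of the array was subtracted. A group with signal well above background on its 3 arrays sufficed for a probe to be tested. A single fit of the 12 arrays, with a mean per group and no block, was made with limma 3.58.1 in R 4.3.3. The p-values were adjusted (Benjamini-Hochberg) across tested probes with a threshold of 0.05. Probes were named by RefSeq accession through a gene table of GRCr8.

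The genes named are the 15 largest differences each way whose arrays do not overlap. To these come 10 opposite genes each way by the smaller of their 2 changes. Up to 6 members of each list with the largest differences are named, and any that went alone against their list. A fixed set of genes of the Nrf2, sterol, muscle and cell cycle fields and 6 genes alike with both compounds complete the rule. Some genes the rule picks are left out of the text. The members, the lists and the rules were chosen with earlier results of these data known, so no list was tested.

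Replicate numbers were taken to pair the samples for the alternative with the replicate number as a block. The main fit did not use this pairing. Across probes, after the group mean was removed, all arrays of the same number correlated above 0.1 (lowest 0.191), and GR24 with pinosylvin at 0.376, 0.257 and 0.637. Arrays of numbers 1 and 2, which share slide 1, correlated between groups at 0.222 to 0.475, so for these the values do not tell a pairing by number from a shared slide. Probes are not independent replicates. Alternatives were other normalization, normexp background correction (offset 50), the deposited table, other filters, outlier spots kept, a fit without the resveratrol arrays (and the control, for the direct comparison), replicate number or slide as a block, slide 1 alone, eBayes with trend and robust settings, the mean over probes of a gene, each array left out, a minimum change of 2-fold and other percentiles.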

Additional observations from a re-analysis of the deposited data

How the results depend on the processing

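All alternatives that count probes (the mean over probes of a gene does not) gave both counts between the compounds within 1.5 times the reported ones, except the minimum change of 2-fold, with 1248 higher and 2193 lower, where the stricter rule itself is the cause. With each array left out, 6293 to 7312 probes were higher and 5828 to 6612 lower. The deposited table gave 8036 higher and 5516 lower. The numbers of genes moved in opposite directions were less steady. Higher with GR24 and lower with pinosylvin were 71 with no filter, 355 with the replicate block, 368 with the slide block, 4 with the minimum change, 102 to 180 with each array left out (102 without control replicate 1), and 279 with the percentile over all spots and 263 with that over the probes bright on all 12. The last 2 were chosen after seeing the data. Lower with GR24 and higher with pinosylvin were 151 with no filter, 523 with either block, 9 with the minimum change and 182 to 277 with each array left out (182 without pinosylvin replicate 1). Probes with an interval within 0.5 of 0 numbered 11201 with normexp and the 75th percentile, 11599 with normexp and quantile normalization, 13627 with no filter, which tests more probes, and 5804 to 7125 with each array left out. For the other shifts the cause was not tested.

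Among the named genes, a single value was past the threshold with the opposite sign: *Atp2a2* had -0.942 as the mean over its probes, because its 3 probes differ. Values not past the threshold also changed sign between slides, for *Bub1*, *Ddias*, *Recql4* and *Nkd1* (-0.226 on slide 1 and 0.668 on slide 2). Of 245 genes with a direct difference past the threshold, 228 kept that call under every alternative run for them. The minimum change of 2-fold was run for the counts alone, and the filter on all 12 arrays left out the genes it does not test. With normexp, under at least 1 of its 2 normalizations, 57 of the 245 differences shrank by over 1.5 times, those of *2200002J24Rikl*, *Actn3*, *Ahr*, *Art1*, *Bdh1*, *C3h15orf48*, *Cd36*, *Cdkn1a*, *Clock*, *Colq*, *Crispld2*, *Egr2*, *Eln*, *Evi2b*, *Fas*, *Fundc2b*, *Gsta2*, *Hykk*, *Id1*, *Ifit2*, *Igfbp2*, *Il18*, *Il6r*, *Insr*, *Kif2c*, *Klf15*, *Magix*, *Mcm10*, *Mgp*, *Mt3*, *Mybpc1*, *Myf6*, *Myl11*, *Myod1*, *Nemp1*, *Npas2*, *Npy1r*, *Oasl*, *Pard6b*, *Pik3ap1*, *Pilra*, *Plcd4*, *Postn*, *Ptgs2*, *Pygm*, *Rsad2*, *Shroom2*, *Slc16a14*, *Smpx*, *Smyd1*, *Sox8*, *Spata46*, *Spmip7*, *Tekt3*, *Tjp3*, *Ucp3* and *Vgf*. On slide 2 alone, 14 were over 1.5 times smaller and 3 larger. With normexp under at least 1 normalization, 44 of 117 changes against the control past the threshold shrank by over 1.5 times. The medians of 31 of 35 lists kept their sign under every alternative and on both slides, and the largest difference between slides was 0.638, for drug exporters. Slide 2 alone gives no fit. Signal near background limits the size of differences given as bounds, and 626 of the 652 list members tested were well above background on all 9 arrays.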

Other observations

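Of 128 tested long non-coding RNAs, 15 were higher and 52 lower with GR24 than with pinosylvin, with a median log2 difference of -0.322. Among 10601 tested protein-coding genes, 3716 were higher and 2854 lower, with a median of 0.058.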
